A study of Mus musculus with 6 samples.

Results

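This account covers 9 genes of myelin and mature oligodendrocytes, *Mbp*, *Mog*, *Mag*, *Mobp*, *Cnp*, *Mal*, *Cldn11*, *Opalin* and *Ermn*, out of 51826 genes in the deposited tables. They were chosen by symbol, each symbol matched 1 row, and all 9 passed the filter on low counts. The libraries came from the cortex of young adult male BALB/c mice, 3 days after whole-brain X-ray irradiation at 10 Gy. W1, W2 and W3 were from wild-type mice (Lgmn+/+-IR), and K1, K2 and K3 from mice lacking *Lgmn*, which encodes asparagine endopeptidase (AEP), a lysosomal protease (Lgmn-/--IR). The Lgmn-/- line came from 1 embryonic stem cell clone and was made by mating floxed mice with Flp and Cre mice, and neither the promoter of the Cre nor the strain of the stem cells is given in the sources used here. All 6 libraries were irradiated, so the genotypes were compared only in irradiated cortex, and non-irradiated cortex was not analysed here.

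Oligodendrocytes wrap axons in a multilayered membrane, myelin, which speeds conduction and feeds the axon. The compact part of the sheath is held together by a few very abundant proteins, and the uncompacted loops and the innermost layer carry adhesion molecules, enzymes and tight junctions. Oligodendrocyte precursors differentiate under the transcription factors SOX10, OLIG2 and MYRF, and the myelin genes are switched on late in that course. In the cortex, myelin is densest in the deep layers and in the white matter beneath, so the amount of myelin RNA in a piece of cortex also depends on how much white matter was taken with it. In bulk tissue, fewer oligodendrocytes and less myelin RNA in each of them cannot be told apart.

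The libraries held between 41874462 and 46829441 counts on genes. *Lgmn* itself had 5558, 5528 and 5775 counts in W1 to W3 and 3703, 3269 and 4109 in K1 to K3 (log2 fold change -0.64 ± 0.12, SE, adjusted p = 0.0315), and these counts cover the whole gene, not the deleted part. Libraries also stood apart in genes of other tissue. The summed level of 11 genes of striatal neurons, a check of the dissection, was 558, 1380 and 2484 CPM (counts scaled to library size, with TMM factors) in W1, W2 and W3 and 2193, 473 and 482 CPM in K1, K2 and K3. Hemoglobin transcripts summed to 7.19 to 15.5 CPM in Lgmn+/+-IR and to 2245, 1710 and 231 CPM in K1, K2 and K3. The striatal sum differed within both genotypes, while hemoglobin was higher in every Lgmn-/--IR library than in any Lgmn+/+-IR library. Results are given below also with the striatal sum in the fit and without K1 and K2.

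The promoters of the genes whose levels differed most and least between the genotypes are shown first. Whether these sequences bear on the levels was not tested. RefSeq promoter windows on GRCm38.p6 were found for 8 of the 9 genes, all but *Mbp*. The windows hold 300 bases, and the lines below hold only the bases upstream of any annotated exon, 5′ to 3′ on the strand of the gene. *Mobp* and *Mog* had the largest falls, and *Ermn* the smallest change among the genes with a window. Capitals mark letters that match 1 of the motifs searched on both strands, which were ACAAAG and ACAATG (SOX factors), CTGGCAC and CTGGTAC (MYRF) and CAGCTG and CATCTG (E-boxes, bound by factors such as OLIG2). No searched motifs overlap in these 3 lines.
*Mobp*, chr9:120149492-120149706, plus strand: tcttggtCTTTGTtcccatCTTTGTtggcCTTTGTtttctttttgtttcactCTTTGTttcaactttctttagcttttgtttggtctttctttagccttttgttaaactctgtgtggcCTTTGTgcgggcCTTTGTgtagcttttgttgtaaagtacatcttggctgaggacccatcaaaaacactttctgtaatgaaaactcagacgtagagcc
*Mog*, chr17:37023399-37023648, minus strand: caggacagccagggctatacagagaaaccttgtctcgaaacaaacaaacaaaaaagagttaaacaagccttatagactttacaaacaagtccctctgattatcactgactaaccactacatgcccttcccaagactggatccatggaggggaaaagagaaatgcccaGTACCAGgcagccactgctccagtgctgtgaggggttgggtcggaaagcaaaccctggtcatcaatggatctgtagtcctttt
*Ermn*, chr2:58052865-58053114, minus strand: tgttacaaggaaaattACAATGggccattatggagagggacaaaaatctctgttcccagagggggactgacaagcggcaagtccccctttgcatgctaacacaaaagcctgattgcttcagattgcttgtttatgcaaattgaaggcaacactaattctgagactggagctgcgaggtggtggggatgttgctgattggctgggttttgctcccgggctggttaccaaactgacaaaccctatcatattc

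The *Mobp* line holds 6 copies of the SOX letters ACAAAG, all read on the opposite strand. Copies per window were not counted over all windows, so this number has no background. Over the 10 windows of the 8 genes, 2 of which overlap at *Mag*, 6 held SOX letters (28.6% of all 32851 windows did) and 5 held MYRF letters (7.1% of all windows). The 2 overlapping *Mag* windows share the same ACAAAG and the same CTGGCAC, so each of these sites is counted in both windows. An E-box of the searched letters was in 1 of the 10, that of *Opalin*, and in 30.6% of all windows. These are matches of letters and no evidence of binding.

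All 9 genes had lower mean levels in Lgmn-/--IR cortex, and 6 of them fell past an adjusted p of 0.05 (edgeR's quasi-likelihood test, Benjamini-Hochberg adjustment over 18345 genes). These were *Mobp*, *Mog*, *Cnp*, *Cldn11*, *Mal* and *Mag*. Of all genes tested, 1.68% were lower by the same rule, and 9482 of 18345 had a negative log2 fold change. Only *Mobp* also passed the fold threshold of the study, a log2 fold change under -1, as did 1.10% of all genes. The median log2 fold change was -0.62 over the 9 genes and -0.01 over all genes tested. In 7 of the 9 every Lgmn-/--IR library lay below every Lgmn+/+-IR library, against 13.3% of all genes. The number past the threshold rested on having all 6 libraries. Without W1 (0.773% of all genes lower), W2 (0.549%), K1 (0.900%) or K3 (0.761%) only *Mobp* passed. Without W3 (0.652%) *Mobp*, *Mog*, *Mag* and *Cldn11* passed, and without K2 (1.34%) *Mobp*, *Mog*, *Cnp*, *Mal* and *Cldn11* did. Other tools and scalings gave similar numbers of the 9. It was 7 with DESeq2, which called 3.69% of all genes lower, 6 with limma-voom (1.65%), RLE scaling (1.60%), upper quartile scaling (1.75%) and a filter of at least 10 counts in every library (1.20%), and 5 with limma on log2(FPKM + 1) (1.68%) and on log2(FPKM + 0.1) (1.67%). It was 3 with no filter on low counts (0.617%) and 2 when same-numbered libraries were blocked (0.376%).

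**Figure D1:**
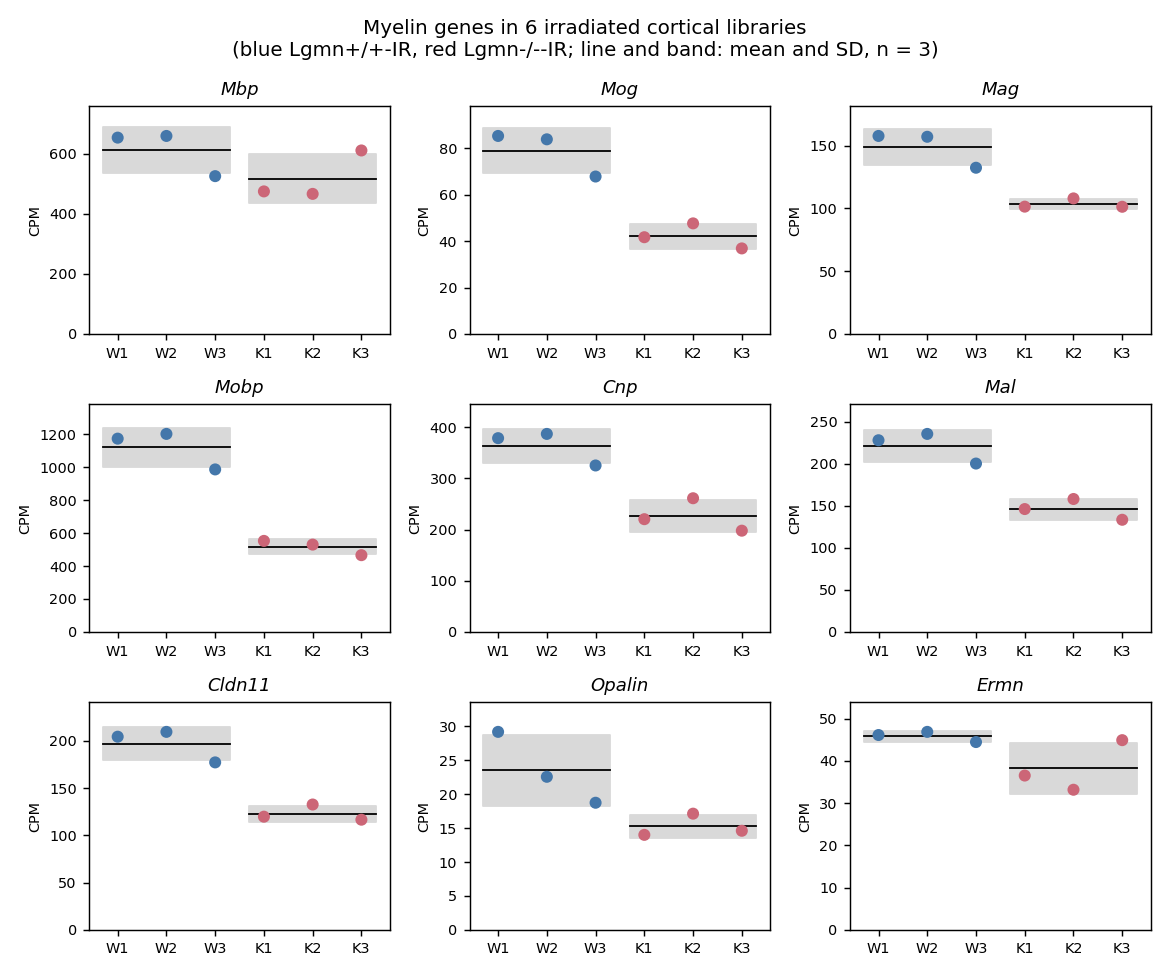
Level of each of the 9 myelin genes (CPM, axes from 0) in the 3 Lgmn+/+-IR libraries (W1 to W3, blue) and the 3 Lgmn-/--IR libraries (K1 to K3, red), with the mean and SD of each group. The groups are separated in 7 panels and overlap in those of *Mbp* and *Ermn*, where K3 lies above W3.

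Among the genes of compact myelin, *Mobp* changed most. It encodes myelin-associated oligodendrocyte basic protein, a small basic protein of the cytoplasmic face of the sheath, and lies on chromosome 9 of GRCm38 from 120149707 to 120181484. *Mobp* had 1174, 1202 and 987 CPM in W1, W2 and W3 and 553, 530.1 and 466 CPM in K1, K2 and K3. The highest Lgmn-/--IR library thus stood far below the lowest Lgmn+/+-IR library. The fall was 53.9% (log2 fold change -1.12, 95% interval -1.38 to -0.85, adjusted p = 0.0033). Of the 9 genes, only *Mobp* passed an adjusted p of 0.05 in all 15 other planned fits that did not scale to a gene list, those without 1 library included, with log2 fold changes from -1.20 to -1.05. Scaled to other genes of mature oligodendrocytes, as described below, it was at -0.57.

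*Mbp*, on chromosome 18, encodes myelin basic protein, which zips the cytoplasmic faces of the membrane together and without which compact myelin does not form in the central nervous system. Its level was 654, 659.6 and 526 CPM in W1, W2 and W3 and 475, 467 and 611 CPM in K1, K2 and K3. K3 lay above W3, so the genotypes overlapped, and *Mbp* did not pass the test (log2 fold change -0.24, 95% interval -0.58 to 0.09, adjusted p = 0.411). The interval still allows a fall of the size seen in *Mag*. *Mobp* and *Mbp* therefore moved unequally within the same libraries. The ratio of *Mobp* to *Mbp* CPM was 1.79, 1.82 and 1.88 in W1, W2 and W3 and 1.16, 1.14 and 0.762 in K1, K2 and K3, with no overlap. This pair was picked after its values were seen and has no test.

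*Mal* encodes a proteolipid that sorts proteins and lipids into the myelin membrane (chromosome 2, 127633226 to 127656695). It had 228, 236 and 200.4 CPM in W1 to W3 and 146, 158 and 133 CPM in K1 to K3 (log2 fold change -0.60 ± 0.10, SE, adjusted p = 0.0275). *Cldn11* encodes the claudin of the tight junctions between myelin layers (chromosome 3, 31149920 to 31164324). Its level was 204, 209.5 and 177 CPM in W1 to W3 and 119.8, 133 and 117 CPM in K1 to K3 (log2 fold change -0.68 ± 0.10, SE, adjusted p = 0.016). For both genes the genotypes were separated, and W3 was the lowest of its group.

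*Cnp*, *Mag* and *Mog* encode proteins outside compact myelin. *Cnp*, for the cyclic nucleotide phosphodiesterase that keeps cytoplasmic channels through the sheath open (chromosome 11, 100574904 to 100591729), had 379, 387 and 325 CPM in W1 to W3 and 220.3, 261 and 198 CPM in K1 to K3. The fall was 37.7% (log2 fold change -0.68 ± 0.13, SE, adjusted p = 0.036). The gene overlaps *Dnajc7* on the opposite strand, which had 5321 to 6081 counts per library and a log2 fold change of 0.05, and the strand setting of the counting is not given in the sources used here.

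*Mag*, for the adhesion protein that faces the axon at the innermost layer (chromosome 7, 30899176 to 30914873), had 158, 157 and 132 CPM in W1 to W3 and 101, 108 and 101 CPM in K1 to K3. The fall was 30.5% (log2 fold change -0.53 ± 0.10, SE, adjusted p = 0.0364), and the 3 Lgmn-/--IR libraries were close together.

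*Mog*, for the immunoglobulin-like glycoprotein of the outermost layer, had 85.3, 83.8 and 67.8 CPM in W1 to W3 and 41.7, 47.6 and 36.8 CPM in K1 to K3. This was the second largest change among the 9, with a fall of 46.8% (log2 fold change -0.91 ± 0.14, SE, adjusted p = 0.0171). *Mog* lies in the H2 region, the mouse major histocompatibility complex, on chromosome 17 from 37010743 to 37023398. Of the 22 other tested genes within 1 Mb of it, 7 passed an adjusted p of 0.05 in either direction, against 3.33% of all genes, and 4 of the 7 were lower. The 7 included the class I genes *H2-T10*, *H2-T22* and *H2-T23*. Around the other 8 genes, between 0 and 2 neighbors passed, of 5 to 65 tested. Whether the position of *Mog* bears on its level was not tested.

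*Opalin* and *Ermn* are late markers of the oligodendrocyte course, a membrane glycoprotein of the paranodal and inner loops and an actin-binding cytoskeletal protein. *Opalin* (chromosome 19, 41061710 to 41077113) had 29.2, 22.6 and 18.7 CPM in W1 to W3 and 14.0, 17.1 and 14.6 CPM in K1 to K3. The groups did not overlap, but the spread within Lgmn+/+-IR was wide, and the adjusted p was 0.123 (log2 fold change -0.62, 95% interval -1.04 to -0.21). *Ermn* (chromosome 2, 58045113 to 58052864) had 46.1, 46.8 and 44.4 CPM in W1 to W3 and 36.5, 33.2 and 44.9 CPM in K1 to K3. Its K3 value was above W3, as for *Mbp*, and *Ermn* did not pass the test (log2 fold change -0.26, 95% interval -0.56 to 0.04, adjusted p = 0.323).

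**Figure D2:**
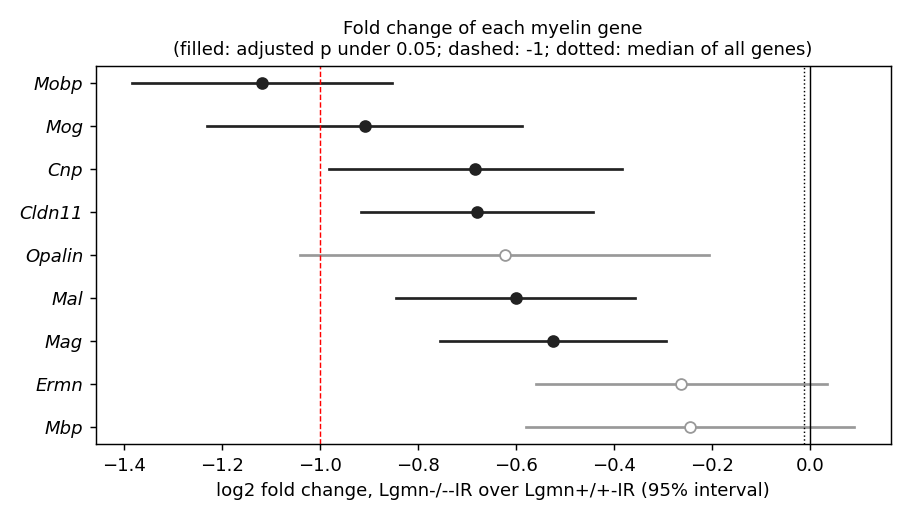
Log2 fold change of each myelin gene between Lgmn-/--IR and Lgmn+/+-IR with its 95% interval (n = 3 libraries each). Filled points passed an adjusted p of 0.05 in edgeR's test, the dashed line marks the fold threshold of -1 and the dotted line the median of all genes tested, -0.01. *Mobp* alone lies past -1, and the intervals of *Mbp* and *Ermn* include 0.

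The 9 genes shared the lowest library among the wild-type samples and not among the knockouts. W3 was the lowest Lgmn+/+-IR library for 9 of 9 genes. Among Lgmn-/--IR libraries, K3 was the lowest for 6 genes and the highest for 2, *Mbp* and *Ermn*, while K2 was the highest for 6. Taken as deviations from the mean of each genotype over the 6 libraries, the correlation with the mean of the 9 genes was 0.998 for *Mag* and 0.955 for *Cldn11* but 0.41 for *Mbp* and -0.16 for *Ermn*. These values describe 6 libraries in which each gene also enters the mean.

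Levels of different genes were compared on the FPKM scale, which divides by transcript length. The 9 genes summed to 1183, 1205 and 976 FPKM in W1, W2 and W3 and to 652, 693 and 632 FPKM in K1, K2 and K3. *Mobp* held the largest share of that sum in Lgmn+/+-IR (35.1% ± 0.341, SD, n = 3), ahead of *Mbp* (26.0% ± 0.696). In Lgmn-/--IR the order was turned, with 31.9% ± 5.23 for *Mbp* and 27.1% ± 2.59 for *Mobp*, although in K1 and K2 these 2 levels were within a few percent of each other (195 and 192 FPKM in K1, 194 and 190.5 in K2, 239 and 153 in K3). *Cnp* followed, with a mean of 12.4% of the sum in Lgmn+/+-IR and 12.9% in Lgmn-/--IR, and then by their means *Cldn11*, *Mal*, *Mag* and *Mog* in both genotypes. The neighbors *Mal* and *Mag* changed places in K3 (39.5 and 42.5 FPKM) and did not differ beyond their spread in Lgmn-/--IR. *Opalin* and *Ermn* were the lowest, each between 0.922% and 1.61% in every library, and their order differed between libraries.

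Counts and FPKM gave different sizes for *Mbp*, and only for *Mbp* among the 9. Its mean FPKM was 292 ± 38.3 in Lgmn+/+-IR and 209 ± 25.8 in Lgmn-/--IR, a log2 fold change of -0.48 by limma on log2(FPKM + 1) (adjusted p = 0.136). The counts that made up 1 FPKM, relative to the median gene of the library, were 0.715, 0.738 and 0.721 in W1, W2 and W3 and 0.818, 0.839 and 0.810 in K1, K2 and K3. All 3 Lgmn-/--IR libraries thus needed more *Mbp* counts for the same FPKM, by 13.4%. Counts per FPKM depend on the length of the transcripts assigned to a gene and on how the counting and StringTie each assign reads, and *Mbp* has 16 annotated transcripts of 354 to 4797 bases. In limma over 13960 genes, a fit chosen after the data were seen, *Mbp* ranked 31 and did not pass (adjusted p = 0.112), while 11 genes or 0.0788% did. A difference at least as large was found in 5.04% of the genes. Among the other 8 the difference farthest from 0 was -1.72%, for *Mobp*. Neither the transcripts that made up the *Mbp* values nor the counting was tested.

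**Figure D3:**
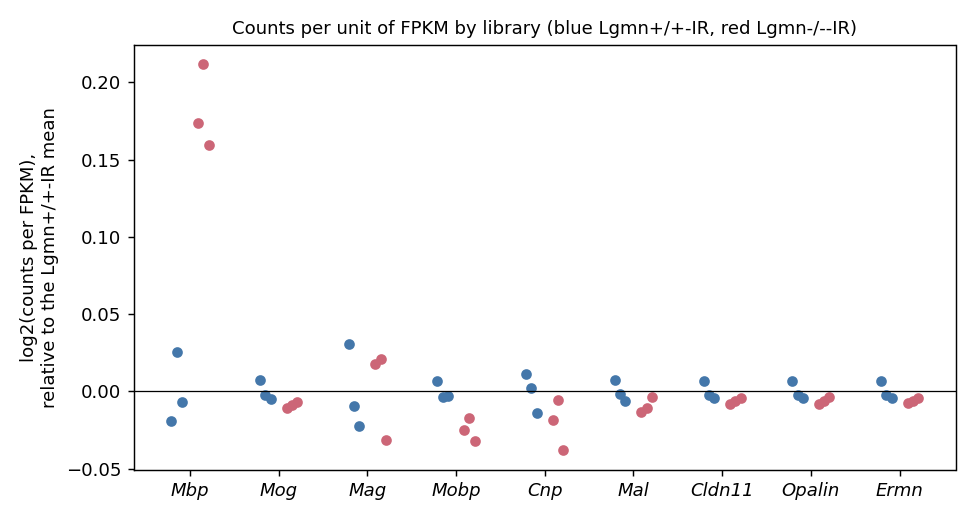
Counts per unit of FPKM of each myelin gene, as log2 relative to the mean of the 3 Lgmn+/+-IR libraries (blue), with the 3 Lgmn-/--IR libraries in red. The red points of *Mbp* lie above all its blue points (difference 0.18 on the log2 scale), while those of the other 8 genes lie near 0.

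The other genes of myelin and the oligodendrocyte lineage were described from 7 lists of 98 genes, of which 92 were tested. Of these 92, 9 were lower and 1 was higher past an adjusted p of 0.05 (of all genes, 1.68% and 1.65%), and their median log2 fold change was -0.21. Of other sheath proteins, 3 of 14 tested were lower and none higher (median -0.38). They included the tetraspanin *Tspan2* (114, 122 and 107 CPM in W1 to W3, 62.7, 67.6 and 61.1 CPM in K1 to K3, log2 fold change -0.84, adjusted p = 0.00468) and *Tmem125* (-0.86, adjusted p = 0.0433). *Gpm6b*, a membrane glycoprotein that neurons and astrocytes also use, was at -0.16 and did not pass.

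Of 12 genes of myelin lipid synthesis, 2 were lower and none higher (median -0.19). *Ugt8a*, for the enzyme that makes galactosylceramide, the typical lipid of myelin, had 58.9, 61.4 and 58.4 CPM in W1 to W3 and 31.4, 29.9 and 34.0 CPM in K1 to K3 (log2 fold change -0.91, adjusted p = 0.00327). *Elovl7*, a fatty acid elongase, was at -0.68 (adjusted p = 0.0321). The highest genes of this list, *Enpp2* at 0.24 and *Cers2* at -0.29, did not pass.

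Of 22 enzymes and carriers of mature oligodendrocytes, 3 were lower and 1 was higher (median -0.25). In 9 of the 22 every Lgmn-/--IR library lay below every Lgmn+/+-IR library, against 13.3% of all genes. In 4 every one lay above, against 12.4% of all genes. The lower ones were *Ppp1r14a*, an inhibitor of myosin phosphatase (-0.90, adjusted p = 0.0131), the protease *Adamts4* (-0.82, adjusted p = 0.012) and the carnosine synthase *Carns1* (-0.72, adjusted p = 0.043). The higher one was *Il33*, an alarmin cytokine that oligodendrocytes and astrocytes hold in their nuclei. It had 8.93, 10.3 and 6.86 CPM in W1 to W3 and 28.2, 29.4 and 37.8 CPM in K1 to K3 (log2 fold change 1.87, adjusted p = 0.00327). *Ptgds* and *Gstp1*, the highest of the list, were at 0.05 and -0.16 and did not pass.

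Earlier stages and regulators changed in few genes. Of 11 genes of newly formed oligodendrocytes, *Enpp6*, a choline phosphodiesterase, was lower (9.35, 9.08 and 8.80 CPM in W1 to W3, 3.96, 4.74 and 4.97 CPM in K1 to K3, log2 fold change -0.99, adjusted p = 0.0124), and *Bcas1* at -0.24 and *Fyn* at 0.35 did not pass. In 5 of the 11 newly formed genes every Lgmn-/--IR library lay below every Lgmn+/+-IR library, against 13.3% of all genes. In 2 every one lay above, against 12.4% of all genes. None of the 11 transcription factors (median -0.19), the 12 genes of paranode, internode and adhesion (median -0.18) or the 13 precursor genes (median 0.14) passed in either direction by edgeR's test. The transcription factor *Olig1* was at -0.27 and *Sox8* at -0.38, the adhesion molecules *Cadm4* and *Omg* at -0.14 and 0.30, and the precursor proteoglycan *Cspg5* at 0.14. With 1 library left out at a time, *Ugt8a*, *Tspan2* and *Il33* passed in 6 of 6 fits, *Enpp6* in 4, *Ppp1r14a* and *Adamts4* in 3, *Tmem125* in 1 and *Elovl7* and *Carns1* in 0 (adjusted p up to 0.144 and 0.148).

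**Figure D4:**
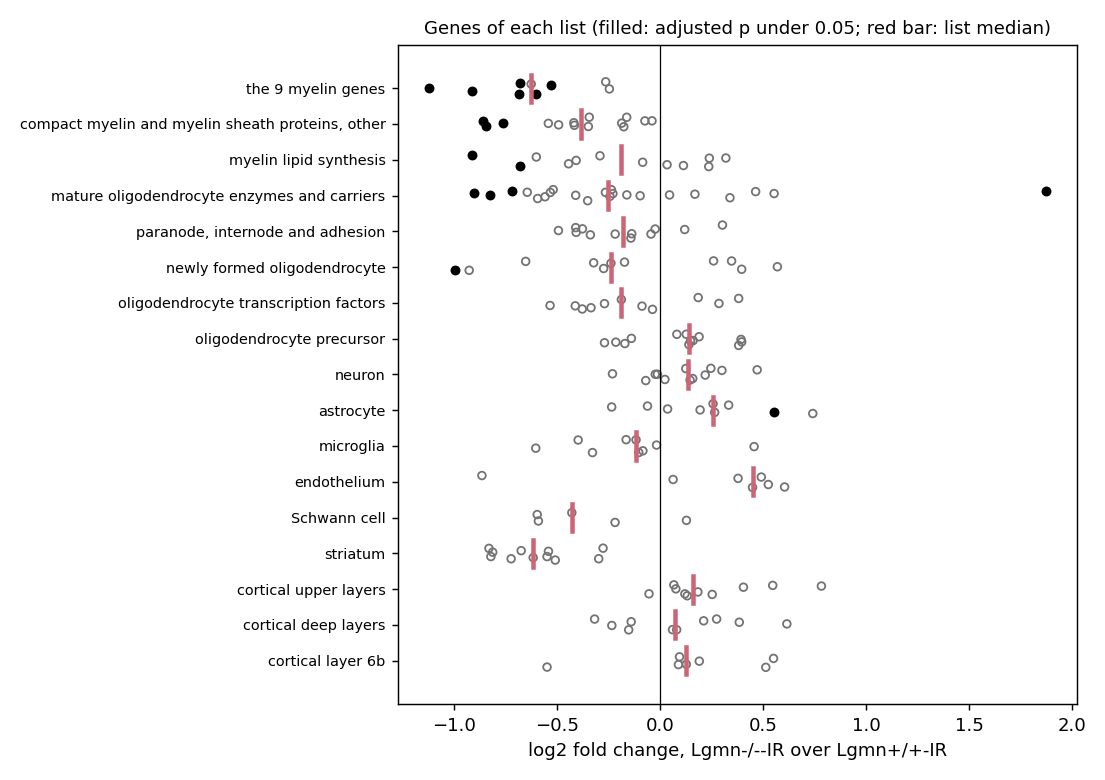
Log2 fold change of every tested gene of each list between Lgmn-/--IR and Lgmn+/+-IR, with the list median as a red bar and filled points for an adjusted p under 0.05. The median of the 9 myelin genes is -0.62, that of the precursor genes 0.14, and the filled point at the far right is *Il33* at 1.87.

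To set the myelin genes against other genes of the same cells, 2 reference lists were used. The 16 genes of the mature oligodendrocyte reference do not include the 9 and are all drawn from the lists above. They hold genes of sheath proteins and of myelin lipid synthesis, so this comparison is partly of myelin genes with other myelin genes. Of the 16, 5 were lower, all named above. Their median log2 fold change was -0.49, so that the 9 genes lay 0.14 below it on the log2 scale. *Sox10*, *Olig1* and *Olig2*, which precursors and mature cells both express, had a median of 0.19, and the 9 genes lay 0.81 below it. That median is the value of *Sox10* alone. *Olig1* was at -0.27 and *Olig2* at 0.38, so the genes of this list differed in sign, and none passed by edgeR's test. Summed CPM of the mature reference were 551, 573 and 497 in W1 to W3 and 349, 371 and 398 in K1 to K3, with no overlap. Those of *Sox10*, *Olig1* and *Olig2* together were 212, 206 and 162 in W1 to W3 and 189, 161 and 200.3 in K1 to K3 and did overlap. When each library was scaled to its mature reference counts, *Mobp* was lower (log2 fold change -0.57, adjusted p = 0.00974), none of the other 8 passed, and 1.30% of all genes were lower. This scaling moved the median of all genes to 0.52, and 8739 of 18345 genes were higher past an adjusted p of 0.05. By that scaling *Mog* was at -0.36 (adjusted p = 0.0781), *Cnp*, *Cldn11*, *Mal* and *Opalin* were between -0.14 and -0.06, *Mag* was at 0.017, and *Mbp* and *Ermn* were on the other side, at 0.29 and 0.27.

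Markers of other regions and cell types were read beside these values as a check of what was dissected. None of the 11 striatal genes passed by edgeR's test. All 11 had negative log2 fold changes (median -0.61), as had 9482 of all 18345 genes tested. Their sum was high in W2, W3 and K1 and low in W1, K2 and K3, so both genotypes held libraries of either kind. The sum of the 9 myelin genes was 2957, 3004 and 2479 CPM in W1 to W3 and 1707, 1755 and 1723 CPM in K1 to K3, and it separated the genotypes. In Lgmn+/+-IR the library with the highest striatal sum, W3, had the lowest myelin sum. The 3 Lgmn-/--IR myelin sums were close together. Among them K1, with the highest striatal sum, was lowest by CPM, but K3 was lowest by summed FPKM (652 in K1 and 632 in K3). The part of the dissection in the myelin values was not tested beyond the fits that follow. With the log2 striatal sum as a covariate, chosen after the data were seen, 7 of the 9 genes were lower, *Opalin* in addition (adjusted p = 0.0483), against 1.59% of all genes. Splitting the libraries by striatal sum, also after the data were seen, left 1 library alone in a genotype, which had to be assumed to vary like the others, so these fits are given as values only. Between W1 alone and K2 and K3, none of the 9 passed edgeR's test after adjustment, against 0.494% of all genes lower, and 7 of the 9 had an unadjusted p under 0.05, as had 10.3% of all genes. Between W2 and W3 and K1 alone, *Mobp* had an adjusted p of 0.0435, and 0.997% of all genes were lower.

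**Figure D5:**
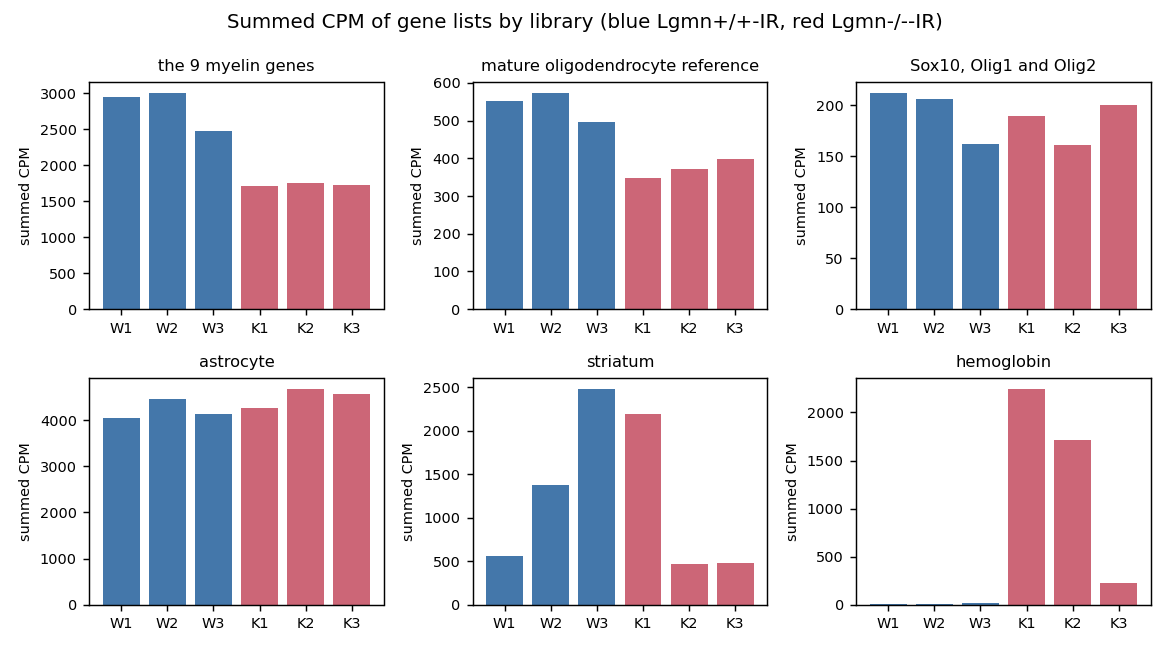
Summed CPM of 6 gene lists in each library (bars from 0; blue Lgmn+/+-IR, red Lgmn-/--IR). The bars of the 9 myelin genes and of the mature reference separate the genotypes, those of *Sox10*, *Olig1* and *Olig2* do not, the striatal bars are high in W2, W3 and K1, and hemoglobin is high in the Lgmn-/--IR libraries, from 231 CPM in K3 to 2245 CPM in K1.

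The depth of the dissection was read from genes of the deep cortex and of tissue next to the white matter. None of the 7 tested genes of layer 6b, the layer next to the white matter (median 0.13, summed 121 to 222 CPM in Lgmn+/+-IR and 157 to 205 CPM in Lgmn-/--IR), passed by edgeR's test, and neither did any of the 10 deep-layer (median 0.07) and 10 upper-layer genes (median 0.16). These lists are not fully apart from the striatal one, with which the layer 6b list shares a gene. The deep-layer genes summed to 421, 463 and 555 CPM in W1 to W3 and to 579, 424 and 547 CPM in K1 to K3. Within each genotype this sum was highest in W3 and in K1, as was the striatal sum. Of 9 hippocampal genes (median -0.03) 1 was lower, *Lct* at -1.09 (adjusted p = 0.0373). The 10 tested genes of choroid plexus and ependyma, which line the ventricles under the white matter, had a median of -0.72, below that of the 9 myelin genes. Of these 10, 8 were negative, as were 9482 of all 18345 genes tested. In 5 every Lgmn-/--IR library lay below every Lgmn+/+-IR library, against 13.3% of all genes. The 1 that passed was *Foxj1*, the master regulator of motile cilia (10.5, 12.3 and 10.1 CPM in W1 to W3, 6.28, 6.74 and 6.84 CPM in K1 to K3, log2 fold change -0.73, adjusted p = 0.0296), and the most abundant, *Ttr*, was at 0.00. The part of this list in the myelin values was not tested. The share of white matter in the samples was not measured, and its part in the fall of the myelin genes was not tested.

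Among other cell types, the astrocyte list (median 0.26) had 1 of 9 genes higher, the water channel *Aqp4* (log2 fold change 0.55, adjusted p = 0.0374), with *Aldoc* at 0.27. In 5 of the 9 every Lgmn-/--IR library lay above every Lgmn+/+-IR library, against 12.4% of all genes. The 12 neuronal (median 0.14, *Snap25* at 0.22), 9 microglial (median -0.12, *C1qa* at -0.12) and 7 endothelial genes (median 0.45, *Ly6c1* at 0.60) had none past the threshold in edgeR's test. Of the 9 microglial genes 8 were negative, as were 9482 of all 18345 genes tested. In 3 every Lgmn-/--IR library lay below every Lgmn+/+-IR library, against 13.3% of all genes, and in 0 above. Their sum was 260 to 288 CPM in Lgmn+/+-IR and 224 to 247 CPM in Lgmn-/--IR. Of 7 Schwann cell genes, 5 had enough counts to be tested and none of them passed by edgeR's test (median -0.43), and *Pmp2*, a fatty acid-binding protein of peripheral myelin, had 0 counts in every library. Of 6 tested erythroid genes 5 were higher, with hemoglobin at a median of 6.67. Leaving out K1 and K2, the libraries with the most hemoglobin, left K3 as the only Lgmn-/--IR library, assumed to vary like the others and still at 231 CPM of hemoglobin. In that fit, chosen after the data were seen, *Mobp* was at -1.26 (adjusted p = 0.0412), 0.667% of all genes were lower, and *Mbp* was at 0.0039. The part of blood in the myelin values was not tested.

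The genes whose levels over the 6 libraries were most like the mean of the 9 were sought among 11797 others with at least 5 CPM. The 10 highest Pearson correlations, between 0.982 and 0.999, included those of *Ctnnbip1*, *Pnp*, *Slc38a9*, *Ppp1r14a*, *Adamts4*, *Gpr37*, *Hjurp*, *Tifa* and *Adssl1*. Of these, *Ppp1r14a*, *Adamts4* and *Gpr37* were also in the oligodendrocyte lists. Within genotypes, the correlation of deviations was 0.991 for *Slc38a9*, which encodes a lysosomal amino acid transporter, and 0.599 for *Adssl1*. The difference between the genotypes itself enters each correlation over the 6 libraries.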

How the data were processed

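Reads were filtered by the authors with Trimmomatic 0.36 and aligned with HISAT2. The authors deposited a raw read count for every gene, not normalized, and FPKM, which the authors computed with StringTie. The submitters' processing notes name GRCm38, and the counter and its strand setting are not given in the sources used here. Of 51826 gene IDs, 51633 were found in GENCODE M21 (GRCm38), which gave gene positions. Counts were tested for genotype with edgeR 4.0.16 in R 4.3.3, using TMM factors, filterByExpr and the quasi-likelihood test, with p adjusted by Benjamini-Hochberg over 18345 genes. Every adjusted p in the text comes from this test unless another is named. FPKM were tested with limma 3.58.1 after log2 transformation with a pseudocount of 1 or 0.1, and counts also with DESeq2 1.42.0. The scripts were first tested on simulated data. The 9 genes and all lists were chosen with earlier results of these data known. Genes named are the 9, *Lgmn*, every listed gene with an adjusted p under 0.05, the most abundant of each list (2 for oligodendrocyte lists), the 10 most alike and, outside this rule, neighbors and overlaps of the 9. Some listed genes that enter the counts and medians are not reported here by name. Libraries of the same group differed beyond sampling noise (mean chi-square 28.7 to 102 for each gene), and each was 1 sample. The p-values rest on the spread between 3 libraries per group, which edgeR draws toward a trend over all genes. The 3 libraries of a group came from 3 mice by the series' description.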

Additional observations from a re-analysis of the deposited data

How the results depend on the processing

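All 9 log2 fold changes were negative in all 15 other fits that were planned and did not scale to a gene list, and their median stayed between -0.75 and -0.57 with each library left out. The number of the 9 past an adjusted p of 0.05 was 6, and ranged from 1 to 5 with each library left out. The number also past the fold threshold was 1, and 1 to 2 with a library left out. Without a filter on low counts, where more genes are tested, 3 of the 9 and 404 genes passed the adjusted p. With the replicate number as a block, 2 of the 9 (*Mobp* and *Mog*), 3 listed oligodendrocyte genes in place of 10, and 139 genes in place of 377 at both thresholds (150 in place of 611 by adjusted p alone) passed. Same-numbered libraries did not deviate together over all genes (correlations -0.296, -0.048 and -0.047). The labels give them a shared number and nothing more. These correlations cannot show whether they also shared a day or a batch, because other differences between libraries enter them. Over all genes, DESeq2 gave 593 genes at both thresholds, 1423 by adjusted p alone and 22 listed genes, limma on log2(FPKM + 1) gave 175 at both thresholds, and at least 10 counts in every library gave 228 and 406. With each library left out, 200 to 326 genes passed both thresholds, 223 to 500 the adjusted p, and 3 to 9 listed genes. The gap to the mature reference, -0.14, stayed between -0.22 and -0.10 with each library left out. To the median of *Sox10*, *Olig1* and *Olig2*, which is the value of *Sox10* alone, the gap was -0.81. Scaled to the mature reference, *Mbp* (0.29), *Mag* (0.017) and *Ermn* (0.27) turned to the other side of 0. In fits chosen after the data were seen, the low-striatum libraries gave 0 of the 9 (0 past both thresholds), 1 listed gene, and 201 genes both at both thresholds and by adjusted p alone. The high-striatum libraries gave 1 of the 9 (0 past both thresholds), 5 listed genes and 383 genes by adjusted p. Without K1 and K2 the counts were 1 of the 9, 2 listed genes, 243 and 283, and *Mbp* turned to 0.0039. Fewer libraries enter these fits, and the striatal or hemoglobin sums of the libraries kept also differ. The cause of the lost calls was not tested. With 3 libraries per genotype, a change of the size fitted for *Mbp* or *Ermn* was within the error.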
